A study of Mus musculus with 30 samples.

Results

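The chaperonin CCT, also called TRiC, is an ATP-driven folding machine of the cytosol. Its genes were taken as a fixed list of 8 (*Tcp1*, *Cct2*, *Cct3*, *Cct4*, *Cct5*, *Cct6a*, *Cct7* and *Cct8*) out of 14558 genes with a value in these data. All 8 had an mRNA half-life in both cell lines studied, and 6 of the 8 had an RNA-seq level in FPKM. This is reads scaled to gene length (per kilobase) and to a depth factor of each library. *Tcp1* and *Cct6a* are described by half-life alone.

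CCT is built of paired rings stacked back to back. Each ring holds 8 different but related subunits, 1 of each in a fixed order, so that the complex needs its subunits in equal numbers. Non-native actin and tubulin are its best-known clients, and they are handed over in part by prefoldin, a jellyfish-shaped cochaperone. Subunits that find no partners are generally degraded, and equal numbers of protein do not require equal numbers of mRNA. The question asked of the data was how even the 8 transcripts were in level and in half-life, and whether both lines gave the same picture.

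The cells were spermatogonial stem cell (SSC) lines, cultures of undifferentiated male germ cells that were derived from testes of *Nanos2*TAG mice at postnatal day 7 on a mixed C57BL/6 and DBA/2J background. They were grown on mouse embryonic fibroblast feeders with GDNF, FGF2, EGF and LIF, and sorted before RNA was taken. The *Nanos2*TAG allele adds V5, c-Myc, a PreScission site, 6xHis and EGFP to the N terminus of NANOS2, an RNA-binding protein of these cells. Line 4 carried 1 tagged and 1 wild-type allele (*Nanos2*TAG/+) and line 5 carried 2 tagged alleles (*Nanos2*TAG/TAG), so both lines made tagged NANOS2 and neither lacked the protein. RNA-seq of ribosomal RNA-depleted total RNA gave 1 library per line. Half-lives came from SLAM-seq, in which RNA is labelled with 4-thiouridine (4SU, 100 µM) and the loss of T-to-C conversions is followed after the label is withdrawn. The chase was sampled at 0, 30, 60, 120, 540 and 1440 min, with 12 libraries per line that the authors fitted to 1 half-life per transcript. Each genotype is therefore 1 line, and the labels name different RNA extraction reagents for the RNA-seq libraries of the lines (QIAzol for *Nanos2*TAG/+, Trizol for *Nanos2*TAG/TAG), so genotype, line and reagent cannot be told apart. The paper treated the RNA-seq libraries of these lines as biological replicates and averaged their FPKM, whereas here they are set side by side. For SLAM-seq, the authors merged technical replicates before the fit. No comparison here had independent replicates of a line, and none was tested.

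The RNA-seq table listed 13904 genes, and whole reads recovered from it summed to 10931439 (*Nanos2*TAG/+) and 11627842 (*Nanos2*TAG/TAG) over 13867 genes. Spermatogonial markers were present in both libraries, though *Id4* stood at only 1.76 FPKM in *Nanos2*TAG/+ and 1.59 FPKM in *Nanos2*TAG/TAG. For the 9 of 10 listed, the median FPKM was 56.2 in *Nanos2*TAG/+ and 102 in *Nanos2*TAG/TAG. Gene by gene 5 were lower and 4 higher in *Nanos2*TAG/TAG, with a median log2 ratio of -0.07 and the highest ratios for *Etv5* (1.95), *Ret* (1.30) and *Gfra1* (0.98), and *Nanos2* itself stood at 27.5 and 23.8 FPKM. Of the 4 markers of differentiating spermatogonia, *Kit* was the highest, at 38.5 and 30.7 FPKM, above *Nanos2* in both libraries. Of 11 fibroblast markers, which the feeder cells would carry, 10 were listed, none at 0 in either library, and they summed to 394 FPKM in *Nanos2*TAG/+ and 548 FPKM in *Nanos2*TAG/TAG.

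Taking levels first, the 6 listed subunits were abundant and uneven. *Cct2*, the β subunit, was the highest in both lines, at 1242 FPKM in *Nanos2*TAG/+ (95% Poisson interval 1219 to 1265, from 11295 reads) and 808 FPKM in *Nanos2*TAG/TAG (790 to 826, from 7910 reads). The intervals here and below cover counting error only. *Cct5*, the ε subunit, which can form rings by itself when it is made alone, followed at 522 FPKM (508 to 536) in *Nanos2*TAG/+ and 317 FPKM (307 to 328) in *Nanos2*TAG/TAG. These were the 2 highest members in both libraries, and together they made up most of the summed FPKM of the 6 listed subunits, *Cct2* with 48.9% in *Nanos2*TAG/+ and 49.4% in *Nanos2*TAG/TAG and *Cct5* with 20.53% and 19.4%.

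The other 4 were lower and closer together. *Cct7*, the η subunit, was read at 245 FPKM (238 to 253) in *Nanos2*TAG/+ and 188 FPKM (182 to 195) in *Nanos2*TAG/TAG. *Cct8*, the θ subunit, was read at 266 FPKM (256 to 276) in *Nanos2*TAG/+ and 110 FPKM (104 to 116) in *Nanos2*TAG/TAG. *Cct4*, the δ subunit, which like *Cct5* can assemble into rings without its partners, was read at 146 FPKM (139 to 153) and 119 FPKM (113 to 126). *Cct3*, the γ subunit, was the lowest in both, with 121 FPKM (116 to 126) in *Nanos2*TAG/+ and 93.8 FPKM (89.5 to 98.2) in *Nanos2*TAG/TAG. Within *Nanos2*TAG/+ no neighbours in this order had overlapping intervals, and within *Nanos2*TAG/TAG only *Cct4* and *Cct8* did. The order was the same in both lines except for *Cct8*, which was the third highest in *Nanos2*TAG/+ and fell behind *Cct7* and *Cct4* in *Nanos2*TAG/TAG (Spearman's rho 0.83 across the 6 genes, as a description).

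**Figure D1:**
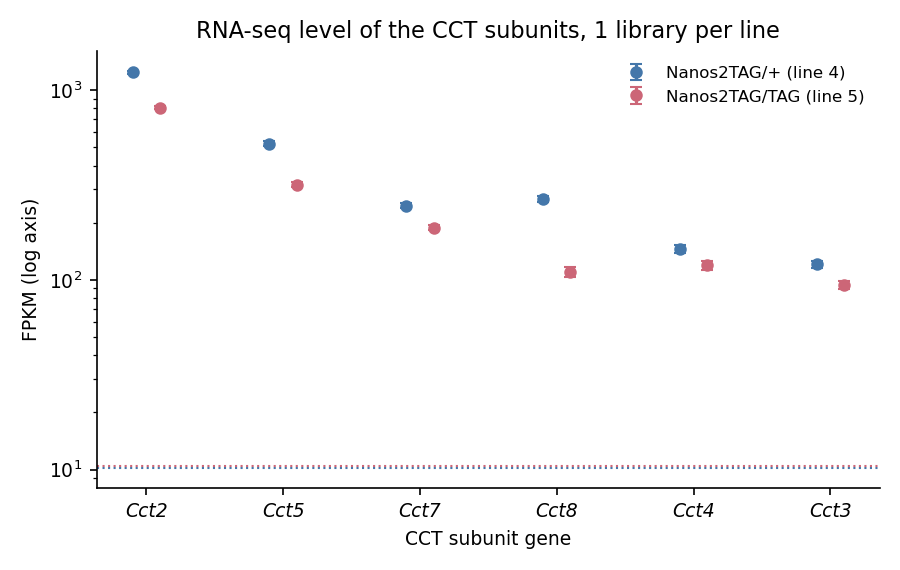
FPKM (log axis) of the 6 listed CCT subunit genes in the *Nanos2*TAG/+ (blue) and *Nanos2*TAG/TAG (red) libraries, 1 library each, ordered by their mean. Bars are 95% Poisson intervals from recovered reads and dotted lines the median of all 13904 genes. Every member lies well above the median of all genes, *Cct2* is the highest in both lines, and *Cct8* shows the widest gap between the lines.

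In the whole transcriptome all 6 ranked high. Their percentiles among listed genes ran from 92.4 (*Cct3*) to 99.4 (*Cct2*) in *Nanos2*TAG/+ and from 90.0 (*Cct3*) to 99.3 (*Cct2*) in *Nanos2*TAG/TAG. Against a median over all genes of 10.2 FPKM in *Nanos2*TAG/+ and 10.5 FPKM in *Nanos2*TAG/TAG, the lowest member was 11.8-fold and 8.97-fold higher. Their median percentile was 96.95 in *Nanos2*TAG/+ and 94.1 in *Nanos2*TAG/TAG.

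The spread among the 6 was 10.3-fold from lowest to highest in *Nanos2*TAG/+ and 8.62-fold in *Nanos2*TAG/TAG, with an SD of log2 FPKM of 1.25 and 1.18. *Cct2* set much of that spread. Without it, the spread was 4.32-fold in *Nanos2*TAG/+ and 3.38-fold in *Nanos2*TAG/TAG. For comparison, the SD of log2 FPKM over 11480 genes at 1 FPKM or more in both lines was 2.15 and 2.11. The 6 subunits were thus spread less than expressed genes at large, and no test of that difference was possible. All 6 lie at the 90.0th percentile of listed genes or above, whereas the comparison genes start at 1 FPKM. The sets are therefore not of like level, and the contrast does not bear on the fixed stoichiometry of the complex.

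The gene length behind FPKM bears on the order of the members. The values correspond to the mean length over all annotated transcripts of a gene in GENCODE M21, and short transcripts pull that mean down. *Cct2* had 7 annotated transcripts with a mean of 834 bases, whereas its principal coding transcript has 1959 bases. For *Cct3* the mean of 1674 bases was closer to the principal transcript of 1977 bases. With the reads divided by principal transcript length instead, *Cct2* stood at 529 FPKM in *Nanos2*TAG/+ and 344 FPKM in *Nanos2*TAG/TAG, and *Cct5* at 276 and 168 FPKM. They kept the first and the second place in both lines, the spread was 8.88-fold in *Nanos2*TAG/+ and 7.65-fold in *Nanos2*TAG/TAG, and the lowest member became *Cct4* (59.5 FPKM) in *Nanos2*TAG/+ and *Cct8* (44.9 FPKM) in *Nanos2*TAG/TAG. With merged exon length, *Cct3* was again the lowest in both lines (31.7 and 24.6 FPKM) and the spread widened to 12.8-fold and 10.7-fold. The places of *Cct2* and *Cct5* held under all 3 lengths and in reads without any length, while the order of the other 4 did not.

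**Figure D2:**
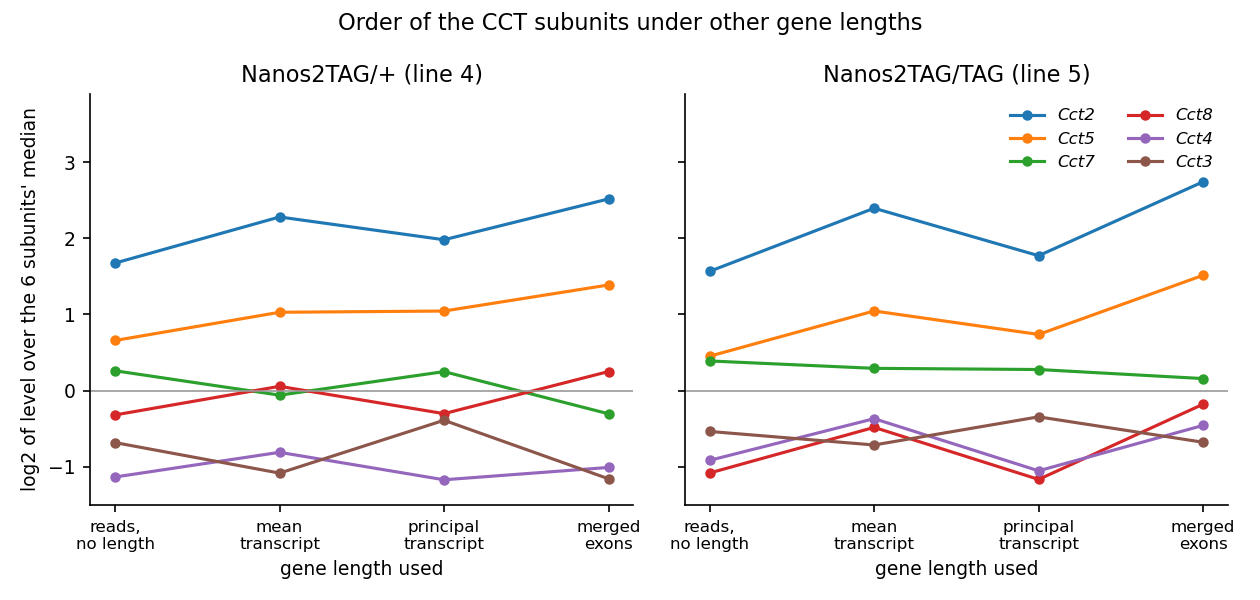
Level of each of the 6 listed subunits relative to their median (log2, y axis) in recovered reads and in reads divided by 3 gene lengths (x axis), in *Nanos2*TAG/+ on the left and *Nanos2*TAG/TAG on the right. *Cct2* and *Cct5* are the highest on every scale, and the lines of *Cct3*, *Cct4*, *Cct7* and *Cct8* cross.

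Half-lives were more even than levels. *Cct8* had 558 min in *Nanos2*TAG/+ and 573 min in *Nanos2*TAG/TAG, and *Cct7* had 523 and 578 min. *Cct2* had 488 min in *Nanos2*TAG/+ and 597 min in *Nanos2*TAG/TAG. *Cct5* had 490 and 489 min, the closest agreement of any member. These 4 had the longest mean half-lives, with overlapping ranges from each to the next in that order. A range here and below runs only between the fitted values of both lines and is not an error interval.

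*Tcp1*, the α subunit, whose gene was first found in the mouse t-complex, had 382 min in *Nanos2*TAG/+ and 458 min in *Nanos2*TAG/TAG. *Cct3* had 447 and 380 min, and its range overlapped that of *Tcp1*. The shortest were *Cct6a*, the ζ subunit, which has a testis-expressed relative in *Cct6b*, with 327 and 353 min, and *Cct4* with 313 and 303 min. In the order of mean half-life there were gaps between *Cct5* and *Tcp1*, between *Cct3* and *Cct6a*, and between *Cct6a* and *Cct4*, where the values of both lines did not overlap. The authors' fit gives no error, so how far such gaps exceed the error of a half-life is unknown.

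All 8 members were above the upper quartile of transcripts in both lines (289 min in *Nanos2*TAG/+ and 300 min in *Nanos2*TAG/TAG), as were 19.1% of all 5806 transcripts. The median half-life of all transcripts was 224 min in *Nanos2*TAG/+ and 226 min in *Nanos2*TAG/TAG, and that of the 8 members was 468 and 473 min. *Cct4* came nearest to the bulk, at the 80.4th percentile in *Nanos2*TAG/+ and the 75.5th in *Nanos2*TAG/TAG. The highest percentile was 96.7 (*Cct8*) in *Nanos2*TAG/+ and 96.3 (*Cct2*) in *Nanos2*TAG/TAG. On the fitted first-order decay, a *Cct8* transcript population in *Nanos2*TAG/+ would still hold 51.1% of its labelled RNA at 540 min of chase and *Cct4* 30.2%, against 18.8% for a transcript of median half-life.

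**Figure D3:**
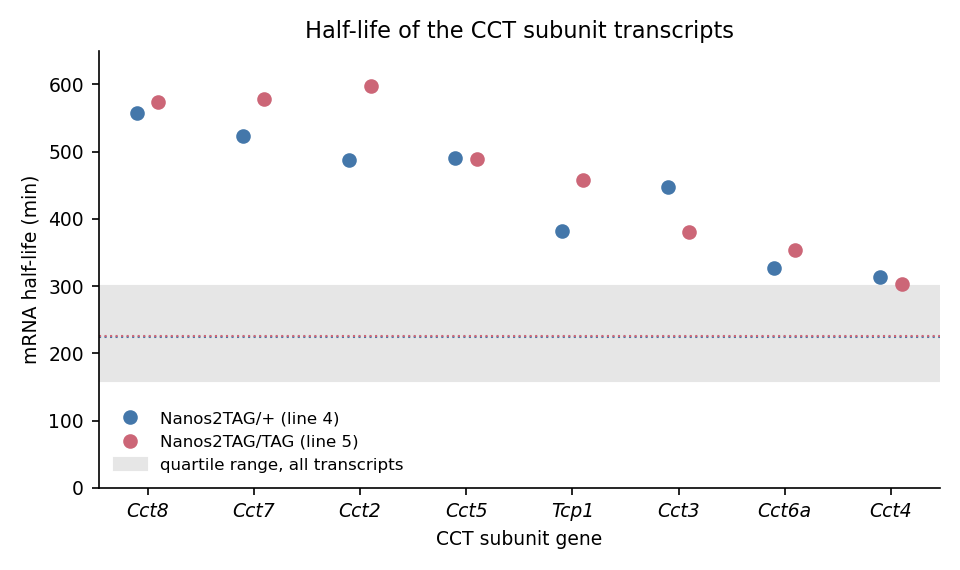
Fitted mRNA half-life (min) of the 8 CCT subunit genes in *Nanos2*TAG/+ (blue) and *Nanos2*TAG/TAG (red), 1 value per line, ordered by their mean. The grey band runs from the lowest lower quartile to the highest upper quartile of all transcripts over both lines and dotted lines are the medians. All points lie above the band, from 303 to 597 min, and *Cct4* lies just above it.

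From the shortest to the longest, the 8 half-lives spanned 1.78-fold in *Nanos2*TAG/+ (*Cct4* to *Cct8*) and 1.97-fold in *Nanos2*TAG/TAG (*Cct4* to *Cct2*). The SD of log2 half-life was 0.31 and 0.37, against 0.73 and 0.84 over all transcripts. All 8 members lie above the upper quartile of half-life in both lines, whereas the comparison covers the full range. The sets are therefore not alike, and this contrast too does not bear on the fixed stoichiometry of the complex. For the 6 members with both measures, the half-lives spanned the same 1.78-fold and 1.97-fold while their FPKM spanned 10.3-fold and 8.62-fold. Half-lives at large also spread less than levels, since the third quartile was 1.79-fold above the first for half-life and 8.55-fold above it for FPKM of expressed genes in *Nanos2*TAG/+. The members kept much of their order from line to line (Spearman's rho 0.81 across the 8 genes, as a description).

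Abundant transcripts in these lines tended to be long-lived, and the members were therefore also set beside transcripts of like level. The 775 transcripts with a mean FPKM inside the range of the members (107 to 1025) had a median half-life of 304 min in *Nanos2*TAG/+ and 317 min in *Nanos2*TAG/TAG. Of the 6 members with an FPKM, 6 were above that median in *Nanos2*TAG/+ and 5 in *Nanos2*TAG/TAG, where *Cct4* was below it. The median percentile of all 8 members was 81.9 in *Nanos2*TAG/+ and 77.1 in *Nanos2*TAG/TAG among these transcripts, and 93.7 and 91.7 among all transcripts, though the level of *Tcp1* and *Cct6a* is not known here. Among the 6 members themselves, level and half-life had a Spearman's rho of 0.43 in *Nanos2*TAG/+ and 0.60 in *Nanos2*TAG/TAG over 6 genes from the same libraries. *Cct8* was the longest-lived in *Nanos2*TAG/+ at 266 FPKM, against 1242 FPKM for *Cct2*.

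**Figure D4:**
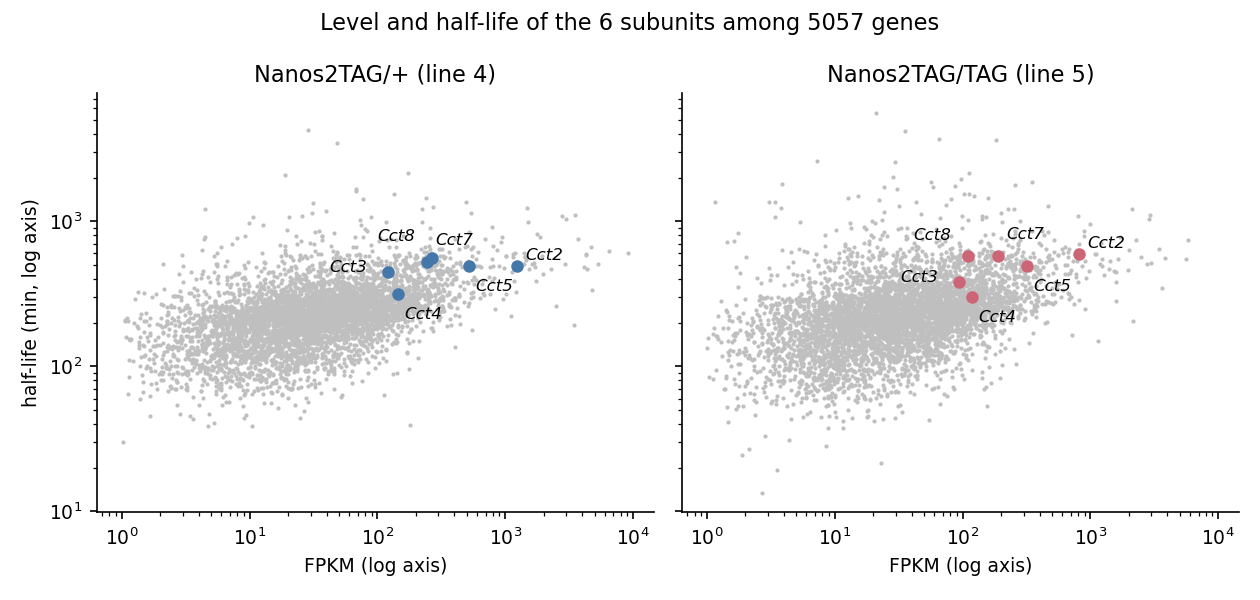
Half-life (min, log axis) against FPKM (log axis) for 5057 genes at 1 FPKM or more in both lines (grey) with the 6 listed CCT subunits in colour, *Nanos2*TAG/+ on the left and *Nanos2*TAG/TAG on the right. The members lie at the high end of both axes, spread widely along FPKM and narrowly along half-life.

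The comparison of the lines asked whether the subunits moved together. Every one of the 6 listed members was lower in *Nanos2*TAG/TAG than in *Nanos2*TAG/+, as were 49.5% of all listed genes. In log2 of FPKM plus 0.1, *Cct8* was the lowest at -1.27 (95% counting interval -1.37 to -1.18), which is 2.42-fold lower in *Nanos2*TAG/TAG. *Cct5* followed at -0.72 (-0.78 to -0.66) and *Cct2* at -0.62 (-0.66 to -0.58). *Cct7* was at -0.38 (-0.45 to -0.32), *Cct3* at -0.36 (-0.46 to -0.28) and *Cct4* at -0.29 (-0.40 to -0.19). The intervals of *Cct7*, *Cct3* and *Cct4* overlapped one another, those of *Cct5* and *Cct2* touched, and that of *Cct8* stood apart from all others. These intervals compare the 2 libraries and not the genotypes.

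Past 1.5-fold, 3 of 6 members were lower in *Nanos2*TAG/TAG (*Cct2*, *Cct5* and *Cct8*) and 0 were higher, while 19.9% of all genes were lower and 23.2% higher by that much. The median of the members was -0.50 on the log2 scale, and that of all genes 0.01. Genes at 100 FPKM or more in *Nanos2*TAG/+, the range in which all 6 members lie, had a median of -0.09. Between the lines, *Cct8* fell from 10.5% to 6.72% of the summed FPKM of the 6, and *Cct4* went from 5.74% to 7.28%. The fibroblast markers differed between the same 2 libraries, with 9 of 10 higher in *Nanos2*TAG/TAG and 5 of these past 1.5-fold, and their part in the difference of the CCT subunits was not tested. In bulk samples such as these, fewer cells of a type and less RNA per cell cannot be told apart.

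Half-lives moved less between the lines. 5 of 8 were longer in *Nanos2*TAG/TAG, as were 54.1% of all transcripts. Past 1.5-fold, 0 of 8 were longer and 0 of 8 shorter, against 10% and 10.7% of all transcripts. In log2 of *Nanos2*TAG/TAG over *Nanos2*TAG/+, the largest differences were 0.29 for *Cct2* (109 min longer), 0.26 for *Tcp1* (76.1 min longer) and -0.23 for *Cct3*. *Cct5*, *Cct8* and *Cct4* changed by 15.1 min or less in either direction. The median over the 8 members was 0.07 and over all transcripts 0.04. *Cct8*, with the lowest ratio of FPKM, had a log2 ratio of half-life of 0.04, and *Cct5*, with the second lowest, of -0.0032.

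How far the reads of each member are its own was read from the reference genome (GRCm38.p6). For *Cct2*, *Cct5*, *Cct6a* and *Cct8*, 100% of the 50-base stretches of the RefSeq transcript occur nowhere else in the genome, and reads were 50 bases long. The share was 98.4% for *Cct7*, 97.9% for *Cct3*, 96.7% for *Cct4* and 87.9% for *Tcp1*. 3′ end libraries such as those of SLAM-seq mostly read the end of a transcript. In the last 300 bases of the RefSeq transcript the share was 81.3% for *Cct4*, 98.0% for *Tcp1* and 100% for the others. The shortest half-life of the complex thus belongs to the member whose RefSeq 3′ end is shared most, and the part of this in its value was not tested. The RefSeq transcript of *Cct4* has 1966 bases and its GENCODE M21 principal transcript 2484. Which 3′ end these cells use was not checked. For *Cct4* and *Tcp1* most of the shared stretches lie within the span of a protein-coding gene. These are 47 of the 63 of *Cct4* in *Xkr4* and 291 of the 297 of *Tcp1* in *Acat2*. Whether they fall in exons of these genes was not checked. Neither gene was listed with an FPKM, so their levels are not known here. Of the processed pseudogenes that share such stretches with a member, only *Gm5380*, a copy of *Cct7*, was listed, at 0.730 FPKM in *Nanos2*TAG/+ and 0.838 FPKM in *Nanos2*TAG/TAG. *Cct8* overlaps *Usp16* on the other strand by 192 bases and *Cct7* overlaps *Pradc1* by 457 bases. *Usp16* was at 8.29 and 9.03 FPKM and *Pradc1* at 22.4 and 20.1 FPKM, both well below the member they overlap.

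The 2 members without FPKM differ from the rest in annotation or place. *Cct6a* (chr5:129786998-129846371, plus strand) is typed in GENCODE M21 as a processed transcript with 0 coding transcripts, and of 787 genes of that type 2 were listed with an FPKM. *Tcp1* (chr17:12915701-12925067, plus strand) is protein coding, and of the transcripts with a half-life on chromosomes 15 to 19, 46.4% had an FPKM, compared with 98.7% on chromosomes 1 to 14. The other 6 lie on chromosomes 10 (*Cct2*), 3 (*Cct3*), 11 (*Cct4*), 15 (*Cct5*), 6 (*Cct7*) and 16 (*Cct8*), so the 8 genes are scattered over 8 chromosomes.

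Since the lines differ in *Nanos2* genotype, the 3′ untranslated regions of the members were searched for the 4 forms of the NANOS2 motif that the study describes, AUGAAAU as well as AUGAAUU and likewise AUUAAAU together with AUUAAUU, on the RNA strand. The 3′ untranslated regions of the RefSeq transcripts run from 128 bases (*Cct5*) to 663 bases (*Cct8*). 2 of 8 members held a match, 25%, against 17.3% of 7004 3′ untranslated regions of 128 to 663 bases and 37.6% of all 20738. The regions compared against come from GENCODE M21 and those of the members from RefSeq, so the shares rest on different gene models. The sites are shown with 10 bases on either side and the match in capitals, *Cct3* at chr3:88321748-88321754 and *Cct4* at chr11:23003313-23003319, both on the plus strand of GRCm38.p6.
*Cct3*: gcuuccaaugAUUAAAUcuaagucauu
*Cct4*: uaaugaaaacAUUAAAUacuugguuuu
Both hold the same form of the motif, and both lie near the end of the RefSeq transcript. The match begins at base 200 of a 218-base 3′ untranslated region in *Cct3* and at base 162 of 185 in *Cct4*. *Cct3* and *Cct4* had shorter half-lives in *Nanos2*TAG/TAG (log2 ratios of -0.23 and -0.05). The members without a match had log2 ratios from -0.0032 (*Cct5*) to 0.29 (*Cct2*). These ratios carry no error, and both lines made tagged NANOS2. A link between a match and the half-life was not tested. A match is a description of the letters and not a bound site.

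Because the listed members were all lower in the same library, their promoters were also searched, in RefSeq windows of 250 bases before to 50 bases after a start site (GRCm38.p6). Windows were available for 7 of 8 members, with 2 windows each for *Cct2* and *Cct5* and none for *Cct4*. The GC box GGGCGG, searched on both strands like the motifs that follow, occurred in all 7, and in at least 1 window of 38.2% of 27025 genes. Members and genes were counted in the same way, by a match in any of their windows. The TATA box TATAAA occurred in 0 of 7 and in 15.7% of genes. CCAAT was found in *Tcp1*, *Cct3*, *Cct6a* and *Cct7* and in 41.1% of genes, and CCGGAAGT, an ETS-type core, in *Tcp1* and *Cct8* and in 4.31% of genes. The inverted pair GAANNTTC or TTCNNGAA, the core of the heat shock element to which heat shock factors bind in promoters of chaperone genes, occurred in *Cct2*, *Cct5* and *Cct6a* and in 16.97% of genes. *Cct2* and *Cct5* are the members with 2 windows each, and by windows the pair occurred in 3 of 9 for the members and in 15.1% of all 32851. These 3 are shown because *Cct2* and *Cct5* are the most abundant members. The pair is in capitals, and each run reads along the strand of the gene, at chr10:117063410-117063417 (*Cct2*, minus strand), chr15:31601873-31601880 (*Cct5*, minus strand) and chr5:129787380-129787387 (*Cct6a*, plus strand).
*Cct2*: caagtgaaGAAGTTTCtagcagga
*Cct5*: gcggccgaTTCCAGAAgctactct
*Cct6a*: taagacttTTCGAGAAgaccccgc
Counted from the start site that its window was built on, the pair begins 42 bases before it in *Cct2*, 34 bases before it in *Cct5* and 24 bases after it in *Cct6a*. The second window of *Cct2* starts farther upstream, and from that start the pair lies 435 bases downstream, inside the gene. Of the heat shock factors, *Hsf2* was listed, at 15.1 FPKM in *Nanos2*TAG/+ and 12.9 FPKM in *Nanos2*TAG/TAG. The presence of the letters says nothing about binding in these cells.

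Other complexes with subunits in fixed numbers were laid beside CCT. The 20S proteasome core, the barrel that degrades proteins, had 13 of 14 genes with an FPKM, from *Psma3* (15.2 FPKM in *Nanos2*TAG/+ and 6.30 in *Nanos2*TAG/TAG) to *Psmb2* (256 and 281), a spread of 16.8-fold and 44.6-fold. The MCM2-7 helicase, which opens DNA for replication, had 5 of 6 and spread 3.83-fold in *Nanos2*TAG/+ and 3.65-fold in *Nanos2*TAG/TAG. Prefoldin had 5 of 6 and spread 27.3-fold and 12.2-fold, on a far lower level with a median of 10.97 FPKM in *Nanos2*TAG/+ and 10.1 FPKM in *Nanos2*TAG/TAG. The CCT spread of 10.3-fold and 8.62-fold lay between that of MCM2-7 and those of the other two in both lines. These complexes differ in the number of genes, and a longer list spans more. By the SD of log2 FPKM, which depends less on that number, CCT (1.25 in *Nanos2*TAG/+ and 1.18 in *Nanos2*TAG/TAG) was above the 20S core in *Nanos2*TAG/+ (1.15) and below it in *Nanos2*TAG/TAG (1.49). It was above MCM2-7 (0.87 and 0.89) and below prefoldin (1.82 and 1.43) in both.

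For half-life, the SD on the log2 scale was 0.31 for CCT in *Nanos2*TAG/+ and 0.37 in *Nanos2*TAG/TAG. It was 0.28 and 0.35 for the 6 MCM genes, 0.51 and 0.35 for 11 genes of the 20S core, and 0.75 and 1.05 for 4 prefoldin genes. CCT was close to MCM2-7 in both lines and to the 20S core in *Nanos2*TAG/TAG. In each of the 4 complexes and in both lines the half-lives had a smaller SD than the FPKM values.

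**Figure D5:**
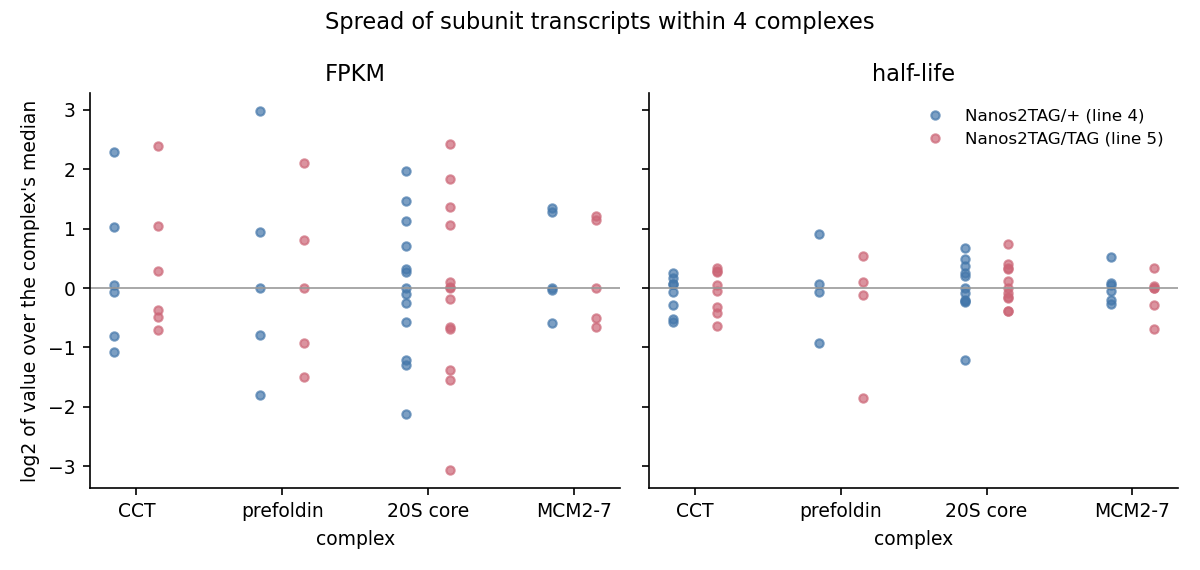
Each subunit gene of CCT, prefoldin, the 20S proteasome core and MCM2-7 as a point, placed at the log2 of its value over the median of its complex, for FPKM (left) and half-life (right) in *Nanos2*TAG/+ (blue) and *Nanos2*TAG/TAG (red). Points spread more for FPKM than for half-life in all 4 complexes.

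Between the lines, the FPKM of the 20S core was lower in *Nanos2*TAG/TAG for 10 of 13 genes, 4 of them past 1.5-fold, with a median of -0.42 on the log2 scale, close to the -0.50 of CCT. That of MCM2-7 was lower for 1 of 5, with a median of 0.25.

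By FPKM, the transcripts of prefoldin and of the phosducin-like partners were lower than those of the listed CCT subunits. The highest prefoldin gene was *Pfdn5*, at 85.9 FPKM in *Nanos2*TAG/+ and 43.4 FPKM in *Nanos2*TAG/TAG, both below the lowest CCT subunit of the same library. With principal transcript length, that lowest subunit stood at 59.5 FPKM (*Cct4*, *Nanos2*TAG/+) and 44.9 FPKM (*Cct8*, *Nanos2*TAG/TAG). No other length was applied to prefoldin, so the order of *Pfdn5* and the lowest subunits may depend on the length used. Of the 5 listed prefoldin genes, 4 were lower in *Nanos2*TAG/TAG, 3 of them past 1.5-fold, and 1 was higher. *Vbp1*, another prefoldin subunit, went from 10.97 to 5.28 FPKM (114 and 59 reads). *Pfdn4* went the other way, from 3.15 to 10.1 FPKM on 25 and 86 reads. *Pfdn5* was also the longest-lived of 4 prefoldin transcripts, with 577 min in *Nanos2*TAG/+ and 670 min in *Nanos2*TAG/TAG, and *Pfdn4* the shortest-lived, with 161 and 127 min.

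The phosducin-like proteins, which bind CCT and modulate the folding of its clients, had 3 of 4 genes listed. By the mean of both lines they ran from *Pdcl* (6.27 FPKM in *Nanos2*TAG/+ and 6.89 in *Nanos2*TAG/TAG) to *Pdcl3* (11.4 and 21.6), and in *Nanos2*TAG/+ alone *Txndc9* was the highest, at 16.01 FPKM. *Pdcl3* was the 1 past 1.5-fold, higher in *Nanos2*TAG/TAG. The chaperonin-like genes, relatives of CCT subunits that include the Bardet-Biedl syndrome genes, had 3 of 5 listed, all between 1.497 and 6.94 FPKM. Their most abundant, *Mkks*, had a half-life of 161 min in *Nanos2*TAG/+ and 72.2 min in *Nanos2*TAG/TAG. The testis-expressed *Cct6b* was not among the listed genes.

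Other chaperones gave a scale for CCT. *Hspa8*, the constitutive cytosolic HSP70, was the highest of 11 listed, with 4805 FPKM in *Nanos2*TAG/+ and 3636 FPKM in *Nanos2*TAG/TAG, and *Hsph1*, an HSP110 family member, the lowest, with 21.2 and 18.7 FPKM. Of the 11, 10 were lower in *Nanos2*TAG/TAG and 1 higher. Past 1.5-fold, 2 were lower and 0 higher, and the median was -0.38 on the log2 scale. Half-lives ran from *Dnajb1*, an HSP40 that is induced by heat shock (129 min in *Nanos2*TAG/+ and 166 min in *Nanos2*TAG/TAG), to *Hspe1*, the mitochondrial cochaperonin (567 and 656 min). The median over 12 chaperones was 315 and 332 min, below the 468 and 473 min of CCT.

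Clients of CCT included the most abundant transcript of these lists. *Actb*, encoding β-actin, was at 5347 FPKM in *Nanos2*TAG/+ and 5578 FPKM in *Nanos2*TAG/TAG. Over 18 listed clients the median was 126 and 140 FPKM, with 7 lower and 11 higher in *Nanos2*TAG/TAG and a median difference of 0.09 on the log2 scale. Past 1.5-fold, 5 clients were higher and 2 lower. The tubulins *Tuba1a* (21.7 and 45.0 FPKM), *Tubb2a* (6.95 and 21.3 FPKM) and *Tubb2b* (2.25 and 7.44 FPKM) were higher in *Nanos2*TAG/TAG by more than 2-fold, and *Tubb3* (8.18 and 3.802 FPKM) was lower by more than 2-fold. Tubulin genes have near-identical coding sequences, so reads may have been split between them. Client half-lives had a median of 303 min in *Nanos2*TAG/+ and 319 min in *Nanos2*TAG/TAG. *Rptor*, which encodes the mTORC1 subunit RAPTOR, had 61.3 min in *Nanos2*TAG/+ and 196 min in *Nanos2*TAG/TAG, and it was the only client past 2-fold in half-life.

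Downstream of CCT, the tubulin folding cofactors join α- and β-tubulin into dimers. All 5 were listed. By the mean of both lines they ran from *Tbcc* (1.58 FPKM in *Nanos2*TAG/+ and 2.49 in *Nanos2*TAG/TAG) to *Tbca* (68.9 and 25.2 FPKM, from 404 and 159 reads), and in *Nanos2*TAG/TAG alone *Tbcd* was the highest, at 27.3 FPKM. Past 1.5-fold, 1 of the 5 was lower in *Nanos2*TAG/TAG (*Tbca*) and 1 higher (*Tbcc*, on 20 and 34 reads).

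The genes whose 4 values (FPKM and half-life in both lines, log2) lay nearest to the median of the 6 listed subunits, out of 5057 genes, were *Rpl37rt*, *Copb2*, *Gnb1*, *Rps3* and *Hint1*, at Euclidean distances from 0.099 to 0.31. *Copb2*, a subunit of the COPI vesicle coat, was at 227 FPKM in *Nanos2*TAG/+ and 149 FPKM in *Nanos2*TAG/TAG, with half-lives of 492 and 556 min. *Gnb1*, a G protein β subunit that is itself folded by CCT, was at 263 and 166 FPKM, with 465 and 620 min. *Rpl37rt* and *Rps3* are ribosomal protein genes, a family with many near-identical copies, and their reads are uncertain for that reason. The members themselves were farther from their own median, from 0.37 (*Cct7*) and 0.50 (*Cct8*) to 3.34 (*Cct2*).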

How the data were processed

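RNA-seq and SLAM-seq values were taken from 3 deposited tables. FPKM values were computed by the authors for 1 library per line from 50-base single-end reads. The labels list kallisto and DESeq2 without role or version, and the aligner and build are not given in the sources used here. The columns were assigned to genotypes by their names (GG, Gp) and the table's name. Half-lives in minutes were deposited by the authors, who fitted T-to-C conversion rates from SlamDunk, relative to the start of the chase, to a first-order decay with the R function nls. They carry no error, and their depth is unknown. CRAC libraries were not used here.

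FPKM times mean GENCODE M21 transcript length gave whole reads (within 0.05) for 100% of 13867 genes, at FPKM divisors of 10908790 (*Nanos2*TAG/+) and 11738620 (*Nanos2*TAG/TAG) reads. The divisor was below the sum of recovered reads in *Nanos2*TAG/+ (10931439) and above it in *Nanos2*TAG/TAG (11627842). The divisors are thus not these sums, and the ratios of FPKM between the lines rest on them. Recovery was tested on simulated data. Intervals are 95% exact Poisson, or exact binomial for the ratio of libraries, and cover counting error only (scipy 1.17.1, Python 3.11.15). Log2 ratios used a pseudocount of 0.1. Spread is highest over lowest and SD of log2. With 1 value per line no test was made. A gene past 1.5-fold is a description of size.

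The members, lists and settings were chosen with earlier results of these data known. Named beside the 8 members were, of each partner list, the highest, the lowest and any gene past 2-fold, of other complexes the highest and lowest at most, and the 5 nearest genes. *Gm5380*, *Xkr4*, *Acat2*, *Usp16*, *Pradc1*, *Hsf2*, *Txndc9* and *Tbcd* were named after their values were seen. Alternatives were other gene lengths, pseudocounts, filters and centrings, and leaving out each member.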

Additional observations from a re-analysis of the deposited data

How the results depend on the processing

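The FPKM spread of the members moved most with the members themselves. Leaving out 1 member at a time gave 4.32 to 10.3-fold in *Nanos2*TAG/+ and 3.38 to 8.62-fold in *Nanos2*TAG/TAG, with the lowest values without *Cct2*. The half-life spread was 1.67 to 1.78-fold and 1.69 to 1.97-fold. Merged exon length gave an FPKM spread of 12.8-fold in *Nanos2*TAG/+ and 10.7-fold in *Nanos2*TAG/TAG, and principal transcript length 8.88-fold and 7.65-fold. Among transcripts in the members' range of mean FPKM, the median half-life percentile was 81.9 in *Nanos2*TAG/+ and 77.1 in *Nanos2*TAG/TAG, in place of 93.7 and 91.7. The median ratio between the lines kept its direction with a pseudocount of 1 or centred on genes at 1 FPKM or more (FPKM), and centred on all transcripts (half-life), and 3 members were past 1.5-fold also when centred. A limit of 1 FPKM or of 1440 min bears only on the values over all genes, where 17.2% were lower by over 1.5-fold and 9.73% of transcripts longer-lived by as much. No paired analysis was possible because each line had 1 RNA-seq library and 1 fitted half-life per transcript. With 1 library per line, the spread between cultures of a line is unknown, and a difference between the lines may be one of genotype, culture or RNA extraction.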
